A study of Homo sapiens with 5 samples.

Results

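The transcript uc002uqk.4, labelled here as that of COL5A2, is 1 of the 93916 transcripts with a length in ribosome profiling tables from HEK293T, a human embryonic kidney cell line. It was taken by its identifier, together with any row within 10 rows that had the same counts in every library, and 0 such rows were found, so the set has 1 member. It was put forward for its difference between QTGAL and QTMAN knockout cells, a comparison in which edgeR called 0 transcripts here at an adjusted p threshold of 0.05. It was thus chosen by its levels in those 4 libraries, and they are given as a description with no test. All 5 libraries were of cells with 1 of 3 genes knocked out, with 1 library labelled QTRT1 KO, 2 labelled QTGAL KO and 2 labelled QTMAN KO. Every library is from HEK293T cells, with no other allele, agent or time in the labels, and unmodified cells were not analysed here. Replicates are numbered here in accession order, as the labels do not explain the numbers in the titles. The labels do not say whether a knockout is a single clone or whether libraries of one genotype came from separate cultures, so spread between them may be technical. Footprints were cut from a gel at 17 to 34 nucleotides after RNase I digestion.

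COL5A2 encodes the alpha 2 chain of type V collagen, a minor fibrillar collagen that joins type I collagen in fibrils and is known to limit their diameter. The chain pairs with alpha 1 chains, encoded by COL5A1, in a triple helix made of glycine-led triplets, and variants in either gene are a known cause of classical Ehlers-Danlos syndrome. QTRT1 carries the active site of the transglycosylase that places queuosine at the first anticodon base of 4 tRNAs, which read tyrosine, histidine, asparagine and aspartate codons. QTGAL adds galactose to queuosine in the tRNA for tyrosine, and QTMAN adds mannose to it in the tRNA for aspartate. Footprints count ribosomes on a message, and RNA levels were not analysed here, so a change in mRNA amount and one in its translation cannot be told apart.

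The name COL5A2 rests on length and place and not on a match of identifiers, since 0 of the 93916 identifiers with a length were found in the gene table used. The row has 1500 codons, as many as the alpha 2 (V) reading frame with its stop codon, and 8 rows of the tables have that length. The row 4 places before it, uc002uqj.2, has 1467 codons, a length that 2 rows share and that fits the reading frame of COL3A1. The row 10 places after it, uc002uql.2, has 831 codons, which 13 rows share and which fits that of WDR75. The RefSeq gene table of GRCh38.p14 places COL3A1 and WDR75 as the protein-coding genes on either side of COL5A2 on chromosome 2. The lengths thus do not go against the label, but the rows are called by identifier in what follows.

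uc002uqk.4 was lowest in the QTGAL knockout libraries and highest in the QTMAN knockout libraries, with the QTRT1 knockout library between them. Levels are in CPM, counts per 1000000 scaled to each library's effective size, with exact Poisson 95% intervals that cover counting error only. QTGAL replicate 1 held 27 counts, or 1.13 CPM (0.746 to 1.65). QTGAL replicate 2 held 41 counts in a library of smaller total, or 3.45 CPM (2.48 to 4.69). The QTRT1 library held 58 counts, or 4.13 CPM (3.14 to 5.34). The 2 QTMAN libraries thus stood apart at the top, with 187 counts, or 9.80 CPM (8.45 to 11.3), in replicate 1. QTMAN replicate 2 held 233 counts, or 9.54 CPM (8.36 to 10.9). Neither QTMAN interval overlapped that of a QTGAL or QTRT1 library, and the QTGAL and QTMAN groups did not overlap, which is the pattern the transcript was chosen for. How many of all tested transcripts had groups that did not overlap was not counted, and with 2 libraries each such an order is common without any difference.

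**Figure D1:**
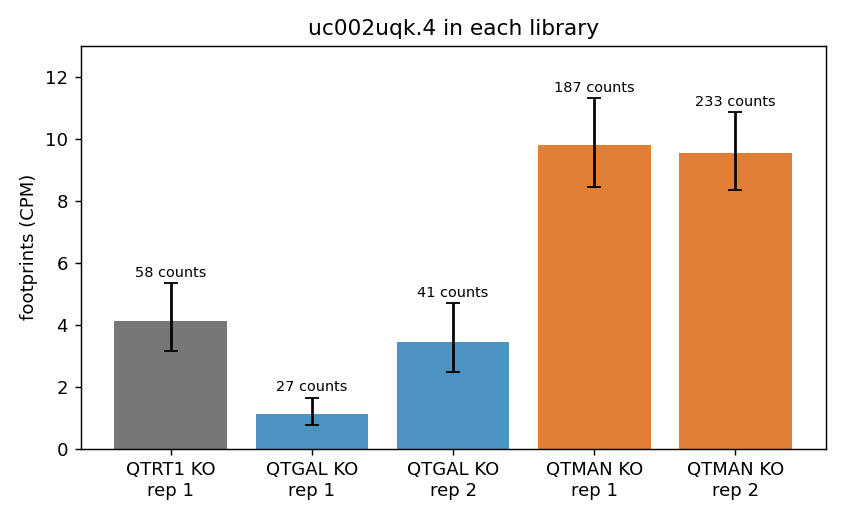
Footprint level of uc002uqk.4 in CPM (vertical axis) in each of the 5 libraries, with the count above each bar; whiskers are exact Poisson 95% intervals and cover counting error only. The QTMAN knockout libraries sit at 9.80 and 9.54 CPM, the QTRT1 library at 4.13 and the QTGAL knockout libraries at 1.13 and 3.45.

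In order of level, the libraries ran QTGAL replicate 1, QTGAL replicate 2, QTRT1, QTMAN replicate 2 and QTMAN replicate 1. The QTMAN libraries did not differ beyond counting error, with a ratio of 1.03 of replicate 1 over replicate 2 and an exact conditional 95% interval of 0.843 to 1.25. The QTRT1 library and QTGAL replicate 2 were not separated by counting error either, at a ratio of 1.20 (0.788 to 1.83). The step from QTRT1 to QTMAN replicate 2 was 2.31-fold (1.73 to 3.14).

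The lowest step lay within a genotype. QTGAL replicate 2 was 3.05-fold above QTGAL replicate 1 (1.83 to 5.16), so these libraries of one knockout differed beyond counting error. Differences at least as large between the QTGAL libraries were seen in 0.440% of the 60966 tested transcripts, and in 0.475% of the 33018 with 100 to 1000 counts in all. The median absolute log2 difference between the QTGAL libraries was 0.20 over all tested transcripts. Between the QTMAN libraries, the transcript differed less than 88.5% of tested transcripts did. The single QTRT1 library gives no such spread of its own.

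The mean level of uc002uqk.4 was 9.67 ± 0.184 CPM over the QTMAN libraries, against 2.29 ± 1.64 CPM over the QTGAL libraries (SD, n = 2 each). The fitted log2 fold change of QTGAL over QTMAN was -2.24 ± 0.34 (SE), a 4.73-fold difference. No p is given for it, as this contrast chose the transcript. Leaving out QTGAL replicate 1 gave -1.48 and leaving out QTGAL replicate 2 gave -3.09, so its size depends on which QTGAL library is kept. Taken singly, the QTMAN libraries were 8.66-fold and 8.43-fold above QTGAL replicate 1 and 2.84-fold and 2.76-fold above QTGAL replicate 2. Of all tested transcripts, 104, or 0.171%, had an absolute log2 fold change at least as large in this comparison, against a median absolute value of 0.17. The share of tested transcripts called in this comparison by edgeR at an adjusted p threshold of 0.05 was 0%, with 3953 transcripts under an unadjusted p of 0.05.

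The QTRT1 library was not the stated ground for choosing the transcript, and its comparison with the mean of both other knockouts was fitted with a p. That mean is taken on the log scale, here and in what follows, and is not the mean of the CPM levels. The transcript was chosen with earlier results of these data known, so its p may not be free of selection. This test is also limited, as it sets 1 library against the 4 that chose the transcript. Those 4 libraries supply all of the spread it is measured by. uc002uqk.4 was not called there: its log2 fold change was -0.11 ± 0.39 (SE, 5 libraries), with an edgeR quasi-likelihood adjusted p of 0.955. Of the 60966 transcripts tested in this comparison, 0.161% were called. The interval of 2 SE on either side runs from -0.89 to 0.68 on the log2 scale, and changes inside it are not excluded. The direction is not settled, as it was -0.48 when QTGAL replicate 1 was left out and 0.32 when replicate 2 was. The QTRT1 library was lower than both QTMAN libraries and higher than both QTGAL libraries. The small value thus averages log2 fold changes of opposite sign, 1.02 over QTGAL and -1.23 over QTMAN, and does not mean equal levels in the 3 knockouts.

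Set against each knockout alone, which is a description because those libraries chose the transcript, the QTRT1 library was 2.02-fold above QTGAL knockout (log2 fold change 1.02 ± 0.45, SE) and 2.34-fold below QTMAN knockout (-1.23 ± 0.40, SE). These comparisons share the QTRT1 library. Against QTGAL knockout the value became 0.26 when QTGAL replicate 1 was left out and 1.87 when replicate 2 was. The value against QTMAN knockout was -1.20 without QTMAN replicate 1 and -1.25 without QTMAN replicate 2. The position of the QTRT1 library below QTMAN knockout was thus alike whichever QTMAN library was kept, while its distance from QTGAL knockout was not.

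**Figure D2:**
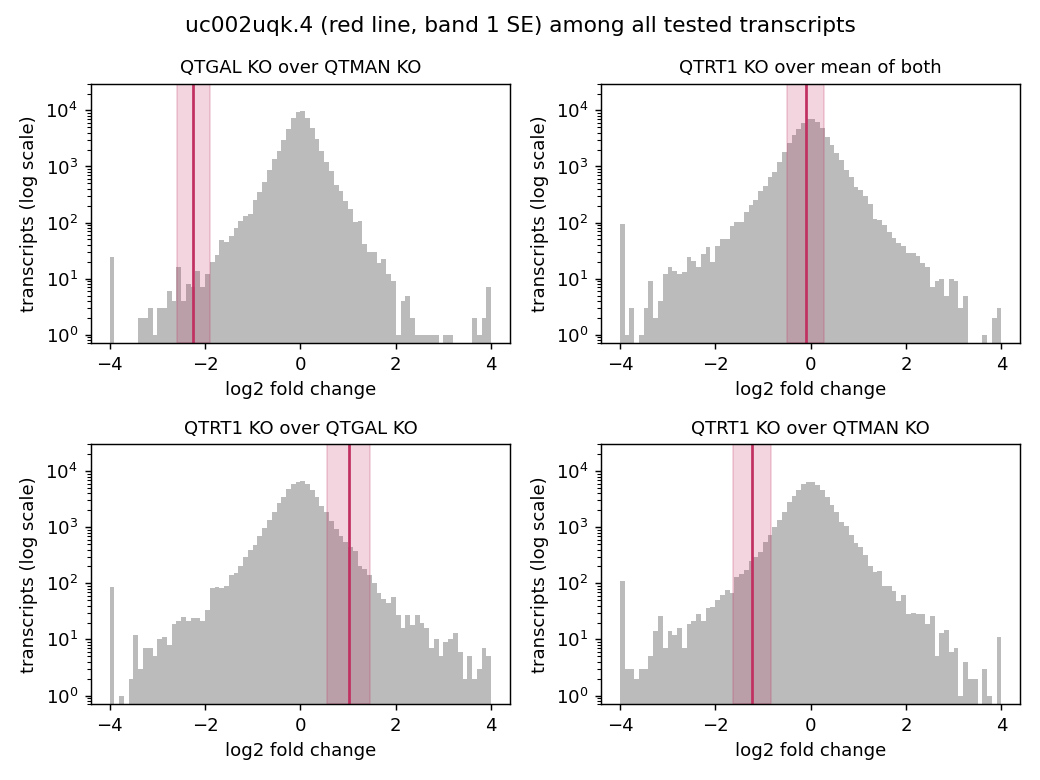
Log2 fold change (horizontal axis) of all 60966 tested transcripts in 4 comparisons, as the number of transcripts per bin of 0.1 on a log scale (vertical axis), with values beyond 4 in either direction in the end bins. The red line marks uc002uqk.4, with a band of 1 SE, at -2.24 for QTGAL over QTMAN, -0.11 for QTRT1 over the mean of both, 1.02 for QTRT1 over QTGAL and -1.23 for QTRT1 over QTMAN.

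The row next to it, uc010frx.4, has 1113 codons and held fewer counts than uc002uqk.4 in each library, as a shorter isoform inside the same reading frame would. It held 45 of 58 counts in the QTRT1 library, 21 of 27 and 33 of 41 in QTGAL replicates 1 and 2, and 146 of 187 and 179 of 233 in QTMAN replicates 1 and 2. That makes 77.6% in the QTRT1 library, 77.8% and 80.5% in the QTGAL libraries and 78.1% and 76.8% in the QTMAN libraries. The share was much the same in every library, and each exact 95% interval held the 74.2% of the codons that this row makes up. Over all libraries together it was 77.7% (73.9% to 81.1%). If the shorter row lies wholly inside the longer one, which the tables do not state, the counts split into those of 1113 codons and those of the other 387.

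Both stretches then showed the pattern of the whole row. Beyond the shorter row, uc002uqk.4 held 13 counts in the QTRT1 library, 6 and 8 in the QTGAL libraries and 41 and 54 in the QTMAN libraries. As a ratio of mean CPM, the QTMAN mean was 4.09-fold the QTGAL mean in the 1113 codons and 4.71-fold in the 387. The same ratio was 4.22 for the whole row, a measure other than the fitted fold change given above. In density, which allows stretches of unequal length to be compared, QTMAN replicates 1 and 2 stood at 6.88 and 6.59 CPM per 1000 codons in the longer stretch and at 5.55 and 5.72 in the shorter. QTGAL replicate 1 stood at 0.791 and 0.650 in the longer and the shorter stretch. The order of the genotypes was the same in both, and the difference was therefore not held by counts in 1 of the stretches alone. The counts of the stretches come from the same libraries and are not independent evidence.

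**Figure D3:**
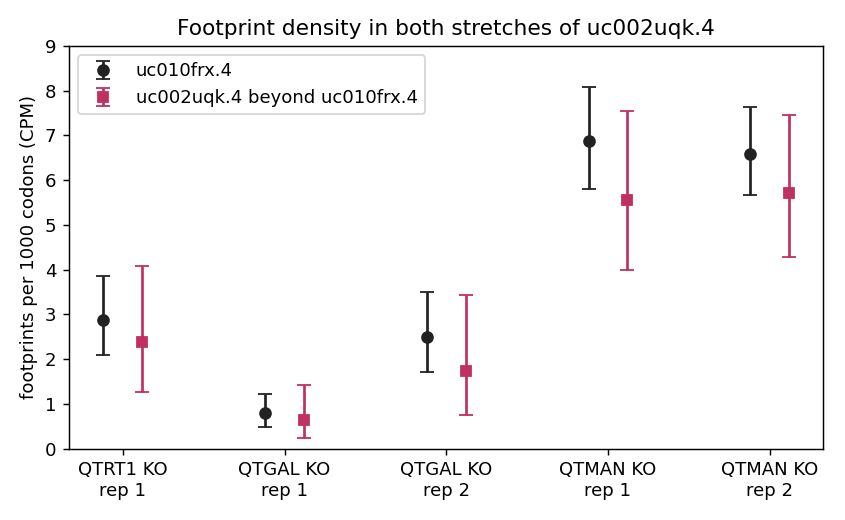
Footprint density (CPM per 1000 codons, vertical axis) in each library for uc010frx.4 (circles, 1113 codons) and for the counts of uc002uqk.4 beyond it (squares, 387 codons); whiskers are exact Poisson 95% intervals. The QTMAN knockout libraries lie between 5.55 and 6.88 in both stretches, and QTGAL replicate 1 lies at 0.791 and 0.650.

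Per length, uc002uqk.4 was thinly covered everywhere. Its density was 2.75 CPM per 1000 codons in the QTRT1 library, 0.755 and 2.30 in QTGAL replicates 1 and 2, and 6.54 and 6.36 in QTMAN replicates 1 and 2. The median density over tested transcripts lay between 14.2 and 14.5 CPM per 1000 codons in all 5 libraries. In QTGAL replicate 1 only 2.68% of tested transcripts had a lower density, against 29.1% in QTMAN replicate 1 and 28.4% in QTMAN replicate 2. The share was 11.9% in the QTRT1 library and 10.3% in QTGAL replicate 2. The transcript was thus below the median density in each of the 5 libraries, also where it was highest.

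The rows around uc002uqk.4 differed in how far they shared its order of levels. Of the 8 other rows with a length within 10 rows, 7 passed the filter on low counts (uc010frx.4 among them), and 0 of the 7 were called in any of the 4 comparisons (lowest edgeR adjusted p 0.253, for uc002uqj.2 in QTRT1 against QTMAN). This count of 0 cannot tell whether the rows changed, as hardly any tested transcripts were called. The share was 0% between the QTGAL and QTMAN groups and 0.161% where the QTRT1 library was compared with their mean. It was 0.00984% for that library against QTGAL knockout alone and 0.116% against QTMAN knockout alone. The 7 rows are not independent either. Some footprints of uc010frx.4 may also be counted in uc002uqk.4, and uc061qoh.1, uc061qod.1 and uc061qog.1 had nearly the same counts. The row uc061qnw.1, of 89 codons, did not pass the filter, with 2 counts in QTGAL replicate 1 and 0 in the other 4 libraries. Over 200 rows with counts on both sides of uc002uqk.4, the median log2 deviation of a library from the mean of the 5 lay between -0.023 and 0.036.

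The row uc002uqj.2, whose 1467 codons fit COL3A1, the chain of type III collagen, had another order of levels. With QTRT1 knocked out it had 0.142 CPM, from 2 counts, with 0.671 and 0.758 CPM in QTGAL replicates 1 and 2, from 16 and 9 counts. It had 2.88 CPM in QTMAN replicate 1 and 0.737 CPM in QTMAN replicate 2, from 55 and 18 counts. Only QTMAN replicate 1 was high, 3.91-fold above QTMAN replicate 2 (2.26 to 7.08), while uc002uqk.4 was level between these libraries. The density of uc002uqk.4 over that of uc002uqj.2 accordingly ranged from 1.65 in QTGAL replicate 1 to 28.4 in the QTRT1 library, the latter resting on 2 counts (7.51 to 239.8). The ratios were 4.46 in QTGAL replicate 2 and 3.33 and 12.7 in QTMAN replicates 1 and 2. The QTRT1 library was the lowest for uc002uqj.2, by -2.91 ± 1.12 (SE) on the log2 scale against the mean of both (adjusted p in edgeR = 0.347). The row uc061qnt.1 beside it, of 1164 codons, held 2 counts in the QTRT1 library, 14 and 9 in the QTGAL libraries and 40 and 15 in the QTMAN libraries, the same order of counts.

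On the other side, uc002uql.2, whose 831 codons fit WDR75, a protein of ribosome biogenesis in the nucleolus, was higher and more even. Its level was 34.3 CPM with QTRT1 knocked out, 41.7 and 38.2 CPM in the QTGAL libraries and 44.5 and 46.5 CPM in the QTMAN libraries. Its log2 fold change of QTGAL over QTMAN was -0.18 ± 0.12 (SE, edgeR adjusted p = 0.862). The rows uc061qoh.1 and uc061qod.1, both of 90 codons, had identical counts, and uc061qog.1, of 98 codons, differed from them by 1 count in QTGAL replicate 1. The row uc061qoh.1 had 2.85 CPM with QTRT1 knocked out, 2.60 and 2.11 CPM in the QTGAL libraries and 4.19 and 3.85 CPM in the QTMAN libraries. The QTRT1 library thus lay above both QTGAL and below both QTMAN libraries, as for uc002uqk.4. The same held for uc061qod.1 and uc061qog.1, which add nothing further as their counts are nearly the same. How common this order is over all tested transcripts was not counted. QTGAL lay below QTMAN here by a log2 difference of -0.74 ± 0.24 (SE; adjusted p in edgeR = 0.689), with QTGAL replicate 2, not 1, the lowest. What these short rows are was not worked out.

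**Figure D4:**
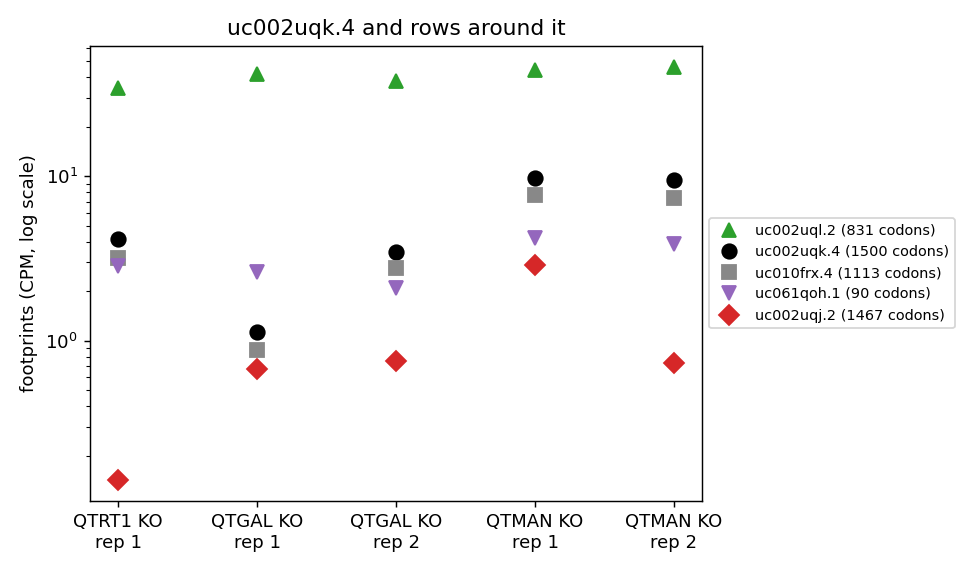
Footprint level (CPM, log scale on the vertical axis) in each library of uc002uqk.4 and 4 rows around it, 1 point per row and library. uc002uqk.4 falls to 1.13 CPM in QTGAL replicate 1, uc002uqj.2 is high in QTMAN replicate 1 only (2.88 CPM), and uc002uql.2 stays between 34.3 and 46.5 CPM.

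Other transcripts of the same length had smaller differences between QTGAL and QTMAN knockout, as did all but 0.171% of tested transcripts. As uc002uqk.4 was chosen for this difference, that is a description only. The tables held 5 other tested rows of 1500 codons, of which uc061ajx.1 and uc010ekv.4 had identical counts. Their log2 fold changes of QTGAL over QTMAN ran from -0.60 to 0.28, and those of QTRT1 over the mean of both from 0.18 to 1.12. The level of uc003iqg.5, which had 531 counts in all against 546 for uc002uqk.4, was highest with QTRT1 knocked out, at 7.12 CPM, followed by 6.40 CPM in QTGAL replicate 2 and 5.66 CPM in QTMAN replicate 1.

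The transcripts most like uc002uqk.4 were looked for by the root mean square difference of log2(CPM + 0.5) values, each centred on its mean over the 5 libraries, among 56669 transcripts with at least 50 counts. The nearest was uc061zip.1, of 171 codons, at a difference of 0.27. It had 3.35 CPM with QTRT1 knocked out, 1.38 and 4.72 CPM in the QTGAL libraries and 7.97 and 9.79 CPM in the QTMAN libraries. QTGAL replicate 1 was the lowest and both QTMAN libraries were the highest, which the search by pattern selects for. Against the mean of both, its QTRT1 log2 fold change was -0.56, given with no p because all 5 libraries entered the search. Within 10 rows of it, uc002ymf.4, of 968 codons, had the same order of levels at 18.9 CPM with QTRT1 knocked out, 11.3 and 33.4 CPM in the QTGAL libraries and 45.6 and 58.9 CPM in the QTMAN libraries; it was singled out after its values were seen. The next by the rule, uc002ody.2 of 533 codons, lay at 0.46 and had 119 counts. It was listed at 0 in QTGAL replicate 1 and at 1.43 to 2.05 CPM in the other 4 libraries.

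The mirrored pattern was approached less closely. The nearest to it was uc010ghp.3, of 460 codons, at 0.49, with 2.31 and 1.43 CPM in the QTGAL libraries, 0.524 and 0.737 CPM in the QTMAN libraries and 1.28 CPM in the QTRT1 library. The next was uc001glb.3, of 1229 codons, at 0.56, with 0 and 0.123 CPM in the QTMAN libraries, 2.14 and 0.927 CPM in the QTGAL libraries and 2.35 CPM in the QTRT1 library. Within a difference of 0.5, 7 transcripts were like uc002uqk.4 and 3 were like its mirror, with any neighbouring rows counted separately. These are descriptions over 5 libraries, and the genes of the rows are not given by the tables.

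The log2 fold change of QTGAL over QTMAN ran from -2.27 to -2.10 over the main setting and 8 others that kept all libraries and no block. That of QTRT1 over QTMAN ran from -1.23 to -1.20 and that of QTRT1 over QTGAL from 0.87 to 1.05. These 3 comparisons kept their signs under each setting tried, but QTRT1 over QTGAL was within 1 SE of 0 in DESeq2, at 0.87 ± 0.90 (SE), and also when QTGAL replicate 1 was left out, at 0.26 ± 0.31 (SE). Whether the QTRT1 level lay above that of QTGAL knockout is thus not settled. The SE was wider in DESeq2 for the other comparisons too. QTRT1 over QTMAN was within 2 SE of 0 there, at -1.23 ± 0.88 (SE), and QTGAL over QTMAN was -2.10 ± 0.72 (SE). For QTGAL over QTMAN and QTRT1 over QTGAL, leaving out a QTGAL library moved the value more than any of the 8 settings did.

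**Figure D5:**
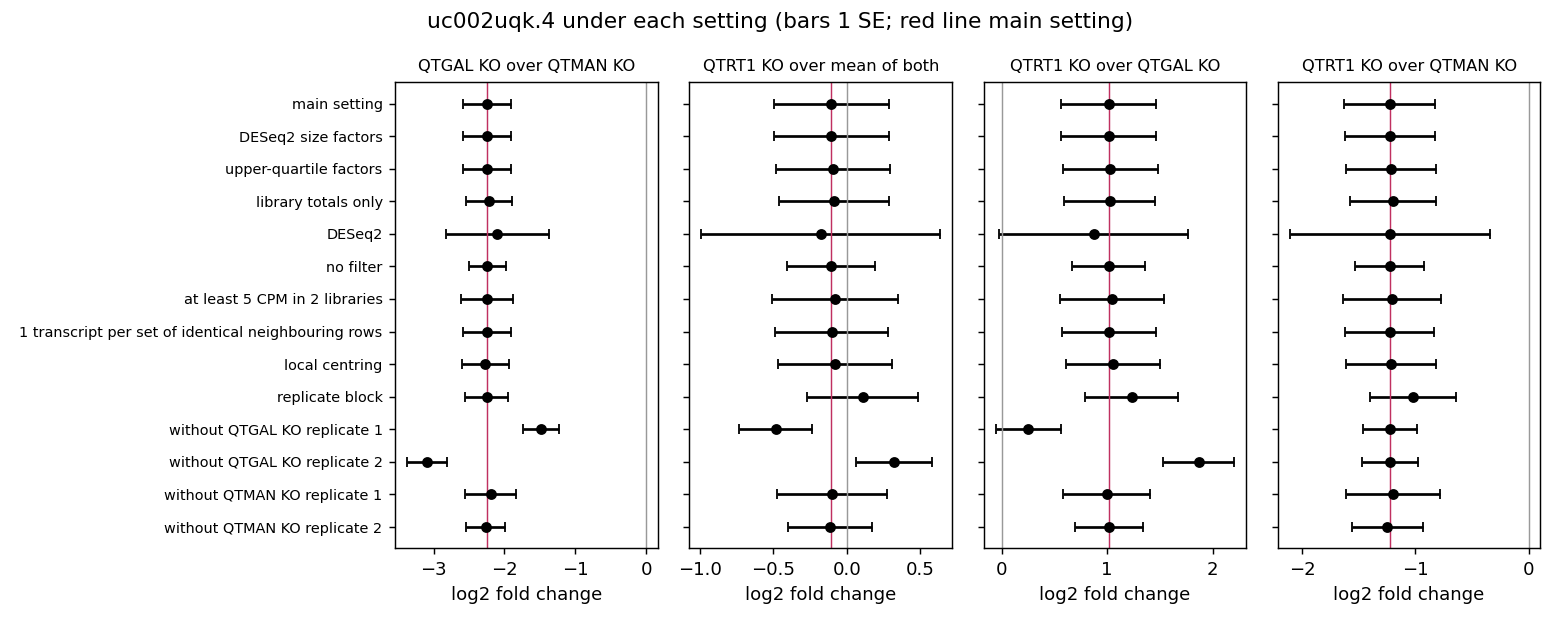
Log2 fold change of uc002uqk.4 (horizontal axes, bars 1 SE) in 4 comparisons under each setting (vertical axis); the red line is the main setting and the grey line is 0. Values without QTGAL replicate 1 or 2 lie farthest from the main setting in the first 3 panels, at -1.48 and -3.09 for QTGAL over QTMAN.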

How the data were processed

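Each library has 1 deposited table, which gives per transcript an identifier, a length (unit other, read as codons) and a raw whole-number footprint count. Per the submitters' processing notes, STAR 2.7.0a, CASAVA and bcl2fastq 2.19 were used with hg38. No annotation or counting program is named in the sources used here. Of 182398 rows, 93916 have a length; the other 88482 hold 0 counts. Totals run from 12002044 to 25291912 per library, and isoform rows may count the same footprint more than once.

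Counts were fitted with edgeR 4.0.16 in R 4.3.3 (filterByExpr, 60966 transcripts; TMM; glmQLFit and glmQLFTest; 1 mean per genotype; 2 residual degrees of freedom), with Benjamini-Hochberg adjustment over all of them. On simulated data for QTRT1 against the mean of both (59759 transcripts kept) the test called 37% of the 2-fold and 81% of the 4-fold changes made. It also called 7 unchanged transcripts. The simulation changed randomly drawn transcripts and took their spread from the trend over all transcripts. These rates thus do not describe the test of uc002uqk.4 itself. DESeq2 1.42.0 was an alternative. For edgeR, the SE is the log2 fold change over the root of F, and F uses spread shared across transcripts. CPM uses TMM effective sizes.

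The member, lists and tests were chosen with earlier results of these data known. Rows named are the member, those within 10 rows, the 2 most like and 2 most mirrored patterns (1 per 20 rows) and the exception stated; rows of 1500 codons were added afterwards. The planned collagen gene list, marker check and residue counts were not run, as identifiers could not be paired with genes and no protein sequences were used.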

Additional observations from a re-analysis of the deposited data

How the results depend on the processing

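For QTRT1 over the mean of both, DESeq2 gave no adjusted p for uc002uqk.4. The transcript was not called under any edgeR alternative that kept all libraries, with quasi-likelihood adjusted p from 0.935 to 0.985. Its log2 fold change of -0.11 reversed to 0.11 with the replicate number as a block (replicate block) and ranged from -0.48 to 0.32 when 1 library was left out. The same range was -3.09 to -1.48 for QTGAL over QTMAN, 0.26 to 1.87 for QTRT1 over QTGAL and -1.25 to -1.20 for QTRT1 over QTMAN. The replicate block gave -2.25, 1.23 and -1.02 for these 3. The block rests on replicate numbers assigned here in accession order, since the meaning of the numbers in the titles is not given, so whether equal numbers pair libraries is not known. Deviations of the pairs correlated at r = 0.19 across transcripts. Scaled to library totals alone, QTMAN replicate 2 stood at 9.21 CPM; its spread with replicate 1 is small, and other libraries moved by less than their spread or counting interval. The 98 transcripts called for QTRT1 over the mean of both became 9 with at least 5 CPM in 2 libraries, 1161 with no filter and 464 with the block. Leaving out QTGAL replicate 1, QTGAL replicate 2, QTMAN replicate 1 or QTMAN replicate 2 gave 95, 478, 428 and 1438, so the background share depends on these choices and on single libraries. With log2(CPM + 1) 2 of the 4 transcripts named for their pattern were picked again, and with at least 200 counts 1 was, uc061zip.1 each time. The cause of these changes was not tested. Counts of 27 and 41 limit the QTGAL levels.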
